A study of Rattus norvegicus with 3 samples.

Results

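The genes described here encode the subunits of the receptors for glutamate, GABA and glycine, the main fast transmitters of the retina. Members were the genes whose symbol begins as an AMPA, kainate, NMDA or delta glutamate receptor subunit, a metabotropic glutamate receptor other than Grm6, a GABA-A receptor subunit (rho subunits included) or a glycine receptor subunit. The rule found 49 genes among 32883, by symbol alone, and the set itself was proposed with earlier results of these data known. The study profiled retinal RNA of Sprague-Dawley rats, postnatal day 60, with 1 library for each of 3 groups. The HIOP_GSK library came from retina whose anterior chamber had received a drug named only as GSK 24 h before ischemia. HIOP, for high intraocular pressure, was ischemic retina without the drug. In both, pressure in the eye was held at 110 mmHg for 60 min, and tissue was taken 12 h later. CTL is labelled untreated, but the protocol also has sham eyes, cannulated at a pressure of 2.66 kPa, so whether CTL eyes were cannulated is not known. No eyes injected with vehicle alone were analysed here, and the number of animals behind each library, the identity of GSK and its dose are not stated.

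Ionotropic receptors are ion channels opened by the transmitter itself. AMPA, kainate and NMDA receptors are tetramers that admit cations, whereas GABA-A and glycine receptors are pentamers that admit chloride. Metabotropic receptors act through G proteins. In the retina, photoreceptors and bipolar cells release glutamate, horizontal and many amacrine cells release GABA, and other amacrine cells release glycine. Ganglion and amacrine cells receive all of these signals. The rho subunits form the GABA receptors once called GABA-C, which are best known from bipolar cell terminals.

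Deposited counts summed to 15132754 in HIOP_GSK, 17221510 in HIOP and 16090064 in CTL. Values are given as CPM, the count scaled to an effective library size, or as the deposited TPM, which also divides by transcript length and was used wherever genes are compared with each other. With 1 library in each group, differences have no replicate check and no test could be run. The range in parentheses after a fold or ratio is its exact 95% interval from both counts, for counting error alone. Calls of higher or lower needed a 2-fold difference in CPM after adding a prior count of 2. Log2 ratios of TPM add a pseudocount of 0.5 TPM, unless another is given, which pulls those of low genes towards 0. Genes with 1 CPM in at least 1 library were kept, 15543 of 32883 in all and 45 of the 49 receptor genes. Markers of rods, the most numerous retinal neurons, had a summed level of 6422 TPM in HIOP_GSK, 8484 TPM in HIOP and 8843 TPM in CTL. Markers of tissues beside the retina differed more between libraries. Lens markers summed to 14169 TPM in HIOP_GSK, 4117 TPM in HIOP and 1573 TPM in CTL, and those of corneal and surface epithelium to 67.1 TPM in HIOP_GSK, 14.5 TPM in HIOP and 270.0 TPM in CTL.

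Receptor genes were lower in HIOP than in CTL in nearly every class, and none was called higher. Of the 45 kept members, 22 were at least 2-fold lower, or 48.9%, where 8.04% of all kept genes were. Without the filter the count was again 22, now of the 48 members with a count, where 9.62% of all genes with a count were. No member was at least 2-fold higher, against 9% of kept genes and 8.87% of genes with a count. The median log2 ratio of the kept members was -0.99, with a lowest value of -2.07, against 0.004 over all kept genes. The median lay almost on the 2-fold limit, so the count of calls moves with it: 35 members were at least 1.5-fold lower (17.6% of kept genes), and 14 had their whole interval past 2-fold (3.44% of kept genes). In the upward direction both of these limits gave 0 members, against 16.1% and 5.76% of kept genes. The interval lay wholly below equal levels for 40 of the kept members and wholly above them for 1. Over all 15543 kept genes it lay below for 4958 and above for 5075. In retinal bulk RNA, fewer cells of a type and less RNA per cell cannot be told apart. The 4 members not kept were Gabra6, Gabrp, Gabrq and Grin3b, each under 20 counts in all 3 libraries, and Gabra6 had no count in any. Gabra5 and Glra4 were kept through their level in CTL alone.

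**Figure D1:**
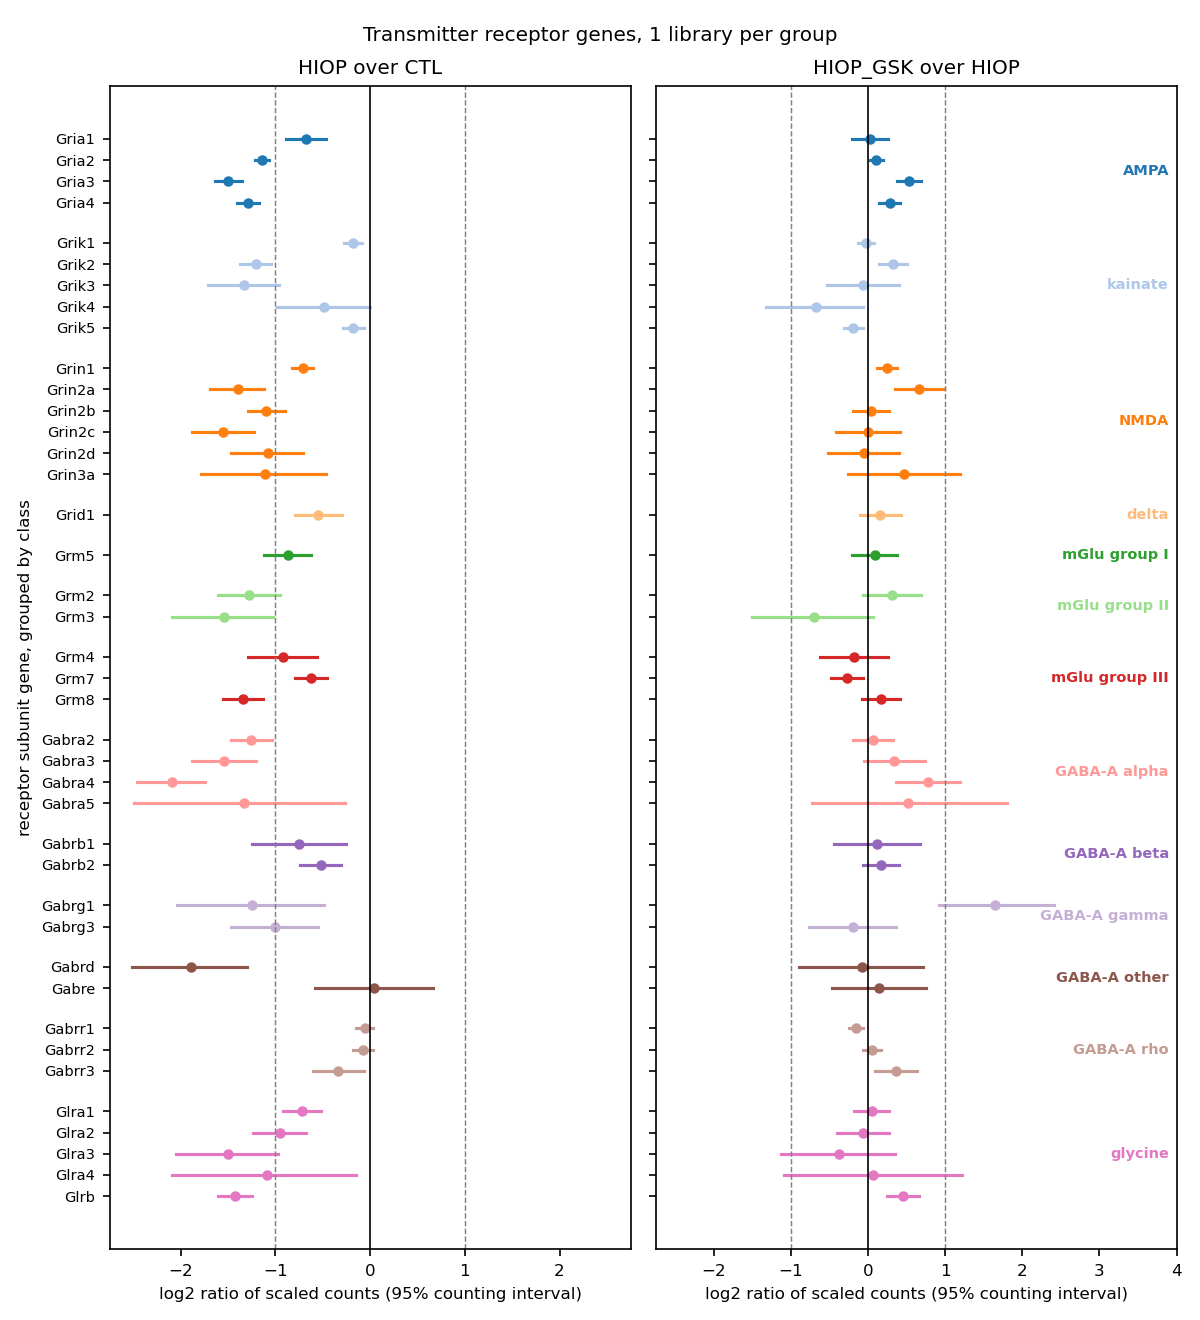
Log2 ratio of scaled counts for 40 of the 45 kept receptor genes, HIOP over CTL on the left and HIOP_GSK over HIOP on the right, with points for the ratio, bars for the 95% counting interval and dashed lines at 2-fold. On the left nearly all points lie below 0, with Gabre, the rho genes, Grik1 and Grik5 nearest to or above it. On the right all but Gabrg1 lie within 2-fold.

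The classes differed in how far their members lay below CTL. Each class has few members, and 8.04% of all kept genes were called lower. AMPA subunits had 3 of 4 members called lower and a median log2 ratio of -1.21, NMDA subunits 5 of 6 kept members and -1.08, and group II metabotropic receptors both members and -1.38. At the other end, none of the 3 rho genes was called, with a median of -0.08, and none of the 3 beta subunits, with -0.67. Kainate subunits had 2 of 5 called and a median of -0.47. Summed over each class, the level of AMPA subunits was 60.4 TPM in HIOP_GSK, 51.5 TPM in HIOP and 128 TPM in CTL. The summed level of rho subunits was 83.2 TPM in HIOP_GSK, 80.3 TPM in HIOP and 93.5 TPM in CTL. AMPA subunits, the largest class in CTL by this sum, were below alpha, rho and kainate subunits in the HIOP_GSK and HIOP libraries.

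**Figure D2:**
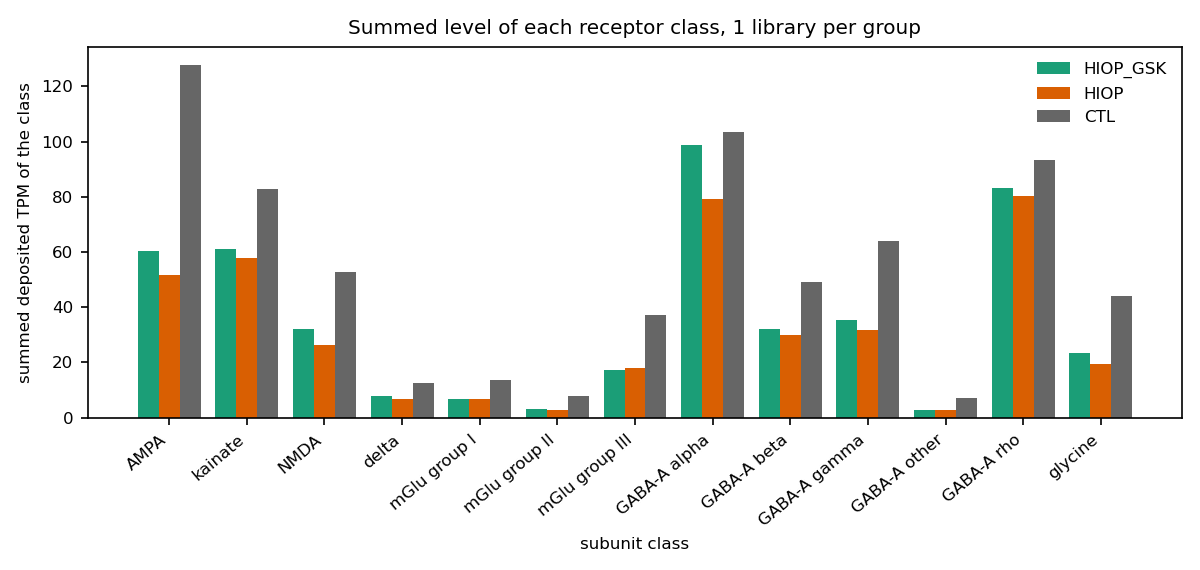
Summed deposited TPM of each receptor class (vertical axis) in HIOP_GSK, HIOP and CTL, 1 library a group and hence no error bars. AMPA subunits had the tallest bar in CTL, at 128 TPM, and stood at 60.4 TPM in HIOP_GSK and 51.5 TPM in HIOP, whereas the rho bars were of similar height in all 3 libraries.

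AMPA receptors carry the fast excitatory current between retinal neurons. Gria2, whose edited product makes the channel nearly impermeable to calcium, was the most abundant AMPA gene in CTL at 51.3 TPM and had 143 CPM in HIOP_GSK, 132 CPM in HIOP and 291 CPM in CTL. Gria3 had 48.1 CPM in HIOP_GSK, 33.3 CPM in HIOP and 93.9 CPM in CTL. Gria4 had 58.8 CPM in HIOP_GSK, 48.4 CPM in HIOP and 118 CPM in CTL. Each was high in CTL alone and low in both ischemic libraries. In HIOP, Gria2 was lower than in CTL by 2.21-fold (2.10 to 2.32), Gria3 by 2.82-fold (2.56 to 3.11) and Gria4 by 2.45-fold (2.25 to 2.66). Gria1, with 18.9 CPM in HIOP_GSK, 18.6 CPM in HIOP and 29.7 CPM in CTL, was lower by 1.60-fold (1.38 to 1.85) and stayed within the 2-fold limit. Its share of AMPA subunit TPM was 12.4% in HIOP_GSK, 14.8% in HIOP and 8.94% in CTL, higher in both ischemic libraries than in CTL. The share of Gria2 was 38% in HIOP_GSK, 40.3% in HIOP and 40.1% in CTL.

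Among kainate subunits, a pair lay close to CTL in HIOP and another pair well below it. Grik1, a subunit that in mouse retina serves cone input to OFF bipolar cells, was the most abundant at 35.8 TPM in CTL and had 98.8 CPM in HIOP_GSK, 101 CPM in HIOP and 115 CPM in CTL. Grik5, which joins other kainate subunits and raises glutamate affinity, had 66.6 CPM in HIOP_GSK, 75.9 CPM in HIOP and 86 CPM in CTL. Both lay within 1.5-fold of CTL in the HIOP library, lower by 1.14-fold (1.06 to 1.21) for Grik1 and 1.13-fold (1.05 to 1.22) for Grik5. Grik2 had 33.7 CPM in HIOP_GSK, 27 CPM in HIOP and 62.3 CPM in CTL. Grik3 had 4.80 CPM in HIOP_GSK, 5.02 CPM in HIOP and 12.6 CPM in CTL. These pore-forming subunits were lower in HIOP by 2.31-fold (2.07 to 2.58) and 2.51-fold (1.94 to 3.27), and their ratios in HIOP_GSK over CTL were 0.541 (0.485 to 0.602) and 0.380 (0.287 to 0.499). Grik4 had a log2 ratio of -0.47 in HIOP over CTL. The share of Grik1 in kainate subunit TPM was 53.1% in HIOP_GSK, 49.5% in HIOP and 43.2% in CTL, and that of Grik2 was 12.6% in HIOP_GSK, 10.3% in HIOP and 18.8% in CTL.

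NMDA receptors need the glycine-binding subunit encoded by Grin1 in every channel, joined by glutamate-binding Grin2 subunits. Grin1 had 70.9 CPM in HIOP_GSK, 59.8 CPM in HIOP and 98 CPM in CTL and was lower in HIOP by 1.64-fold (1.51 to 1.77), the least of the kept NMDA genes. All 4 Grin2 genes were past the limit. Grin2c had 6.18 CPM in HIOP_GSK, 6.19 CPM in HIOP and 18.1 CPM in CTL and was lower by 2.93-fold (2.34 to 3.69). Grin2a had 13.3 CPM in HIOP_GSK, 8.41 CPM in HIOP and 22.2 CPM in CTL and was lower by 2.64-fold (2.17 to 3.22). In HIOP_GSK, Grin2a stood between its HIOP and CTL levels, whereas Grin2c was as low as in HIOP. Grin2b, with 19.5 CPM in HIOP_GSK, 19 CPM in HIOP and 40.6 CPM in CTL, was lower by 2.14-fold (1.87 to 2.45). Grin2d, with 4.99 CPM in HIOP_GSK, 5.20 CPM in HIOP and 11 CPM in CTL, was lower by 2.12-fold (1.63 to 2.76). Grin3a, which encodes a further glycine-binding subunit, had 38 counts in HIOP_GSK, 31 in HIOP and 63 in CTL and was lower by 2.16-fold (1.38 to 3.44). Grin2d had 1.13 TPM in HIOP_GSK, 0.940 TPM in HIOP and 2.19 TPM in CTL, and Grin3a had 0.940 TPM in HIOP_GSK, 0.720 TPM in HIOP and 1.45 TPM in CTL. At such low TPM the log2 ratio depends on the pseudocount, and of this pair only the call of Grin2d turned with it. The log2 ratio of Grin2d in HIOP over CTL was -0.90 with a pseudocount of 0.5 and -1.14 with 0.1, and that of Grin3a was -0.68 with 0.5 and -0.92 with 0.1.

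The delta receptors bind cerebellins at synapses and are related to the other ionotropic glutamate receptors by sequence. Grid1, at 7.17 TPM in CTL, had 15.6 CPM in HIOP_GSK, 14 CPM in HIOP and 20.4 CPM in CTL and was lower in HIOP by 1.46-fold (1.23 to 1.73). It was highest in CTL and lowest in HIOP.

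Metabotropic glutamate receptors were all below CTL in HIOP, by 1.5-fold or more for each of the 7 members. Group I receptors activate phospholipase C. Grm5, at 7.63 TPM in CTL, had 12.9 CPM in HIOP_GSK, 12.1 CPM in HIOP and 22.2 CPM in CTL. It was lower in HIOP by 1.83-fold (1.54 to 2.18) and about as low in HIOP_GSK. Groups II and III inhibit adenylyl cyclase. Of group II, Grm2 had 8.41 CPM in HIOP_GSK, 6.78 CPM in HIOP and 16.4 CPM in CTL and was lower by 2.42-fold (1.94 to 3.04). Grm3 had 23 counts in HIOP_GSK, 42 in HIOP and 115 in CTL and was lower by 2.91-fold (2.03 to 4.25). Grm3 was lower still in HIOP_GSK, where its ratio to CTL was 0.212 (0.129 to 0.333). In group III, whose products often sit on transmitter-releasing terminals, Grm7 was the most abundant at 19.3 TPM in CTL, had 22.5 CPM in HIOP_GSK, 27.2 CPM in HIOP and 41.9 CPM in CTL and was lower by 1.54-fold (1.37 to 1.74). Grm8 had 17.7 CPM in HIOP_GSK, 15.8 CPM in HIOP and 39.9 CPM in CTL and was lower by 2.53-fold (2.19 to 2.93). The remaining member, Grm4, had a log2 ratio of -0.91.

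GABA-A receptors usually combine alpha, beta and gamma subunits, and the alpha subunit sets much of their pharmacology. Gabra2, Gabra3, Gabra4 and Gabra5 were all called lower. Gabra4, which in brain often joins the delta subunit in receptors outside synapses, had 8.28 CPM in HIOP_GSK, 4.85 CPM in HIOP and 20.7 CPM in CTL and was lower by 4.28-fold (3.36 to 5.51), the furthest below CTL of any member. Gabra3 had 7.69 CPM in HIOP_GSK, 6.07 CPM in HIOP and 17.6 CPM in CTL and was lower by 2.90-fold (2.31 to 3.67). Gabra2 had 15.7 CPM in HIOP_GSK, 15.1 CPM in HIOP and 36 CPM in CTL and was lower by 2.39-fold (2.06 to 2.77). Their levels in HIOP_GSK were again well below those of CTL. Gabra5 had 14 counts in HIOP_GSK, 11 in HIOP and 26 in CTL, and was lower by 2.51-fold (1.20 to 5.64), with a wide interval.

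**Figure D3:**
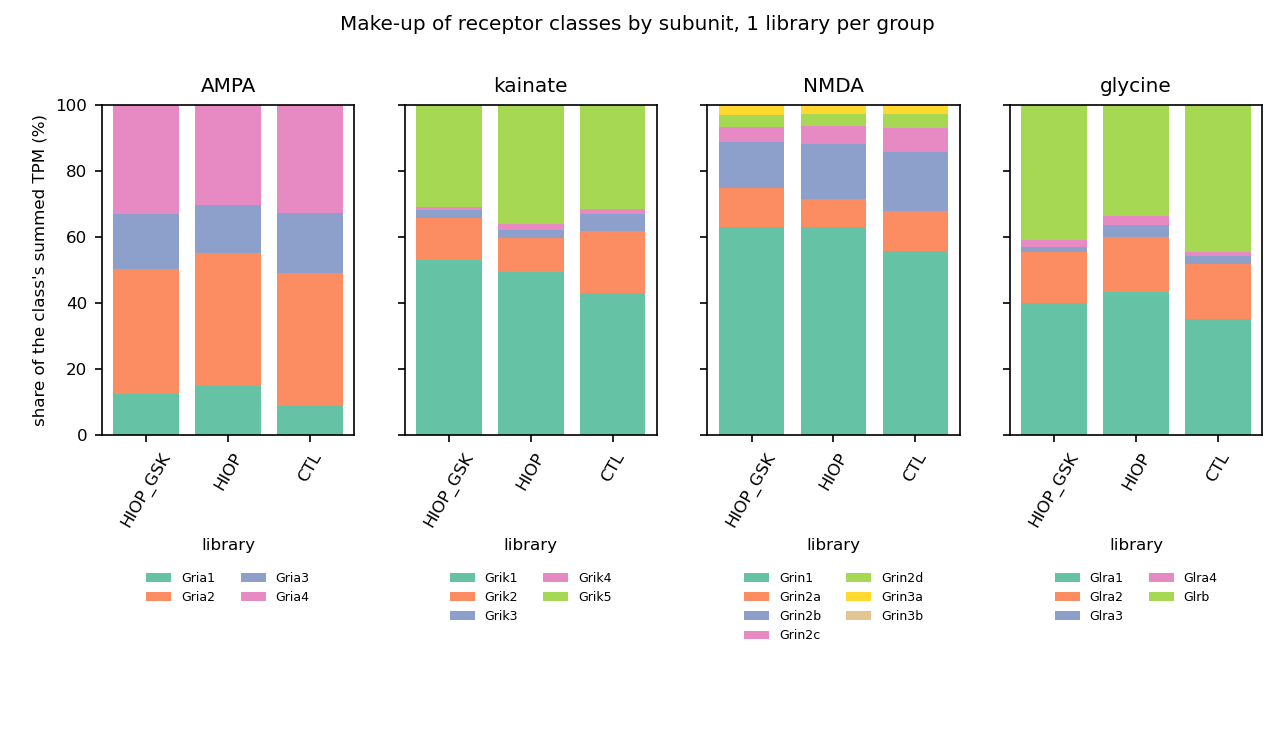
Share of each subunit in the summed deposited TPM of its class (vertical axis, percent) in HIOP_GSK, HIOP and CTL, for AMPA, kainate, NMDA and glycine receptor subunits, 1 library a group. The Grik1 block takes more of the kainate class in both ischemic libraries than in CTL, and the Glrb block takes least of the glycine class in HIOP.

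Beta subunits, which complete the GABA binding site, were lower by less than 2-fold. Gabrb2 had 20.4 CPM in HIOP_GSK, 18.1 CPM in HIOP and 26 CPM in CTL and was lower in HIOP by 1.44-fold (1.24 to 1.67). Gabrb1, with 55 counts in HIOP_GSK, 57 in HIOP and 90 in CTL, was lower by 1.68-fold (1.19 to 2.38). Both were highest in CTL, with the ischemic libraries close to each other.

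Gamma subunits tie GABA-A receptors to synapses and help form their benzodiazepine site. Gabrg1 had 61 counts in HIOP_GSK, 22 in HIOP and 49 in CTL and was lower in HIOP by 2.37-fold (1.41 to 4.11). Its level in HIOP_GSK lay above both other libraries, but the interval of its ratio to CTL, 1.32 (0.889 to 1.96), included equal levels. Gabrg3 had a log2 ratio of -0.98, just inside the limit with the prior count. Gabrd, whose product replaces gamma in receptors outside synapses, had 26 counts in HIOP_GSK, 31 in HIOP and 108 in CTL and was lower in HIOP by 3.71-fold (2.47 to 5.72) and about as low in HIOP_GSK. Gabre had 47 counts in HIOP_GSK, 48 in HIOP and 44 in CTL, with a ratio of 1.03 (0.667 to 1.58) whose direction turned with deposited TPM, at a log2 ratio of -0.39.

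The rho genes were close to their CTL levels in HIOP. Gabrr1, the most abundant of them at 44.4 TPM in CTL, had 103 CPM in HIOP_GSK, 115 CPM in HIOP and 119.6 CPM in CTL, a ratio of 0.960 (0.901 to 1.02) in HIOP over CTL. Gabrr2, singled out after its values were seen, had 83.1 CPM in HIOP_GSK, 80.2 CPM in HIOP and 84.5 CPM in CTL, a ratio of 0.949 (0.880 to 1.02). For both, the counting interval included equal levels. Gabrr3, at 6.46 TPM in CTL, had 16 CPM in HIOP_GSK, 12.5 CPM in HIOP and 15.8 CPM in CTL and was lower by 1.26-fold (1.05 to 1.52). On deposited TPM the log2 ratios of the 3 genes were -0.24, -0.17 and -0.32, all below 0 and far inside the limit. The median log2 ratio of TPM over all kept genes was -0.083.

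To set sequence beside these values, promoters of 4 GABA-A genes at the ends of the range are shown. They are the 2 members furthest below CTL in HIOP (Gabra4 and Gabrd) and the 2 nearest to CTL among those with at least 1000 counts in CTL (Gabrr1 and Gabrr2), chosen by their values among the 31 of 49 members with an entry in the RefSeq promoter table of build GRCr8. Each line holds the 250 bases before the annotated start, 5′ to 3′ on the gene's own strand, and capitals mark motif matches.
Gabra4 promoter, chr14:36944497-36944746, plus strand: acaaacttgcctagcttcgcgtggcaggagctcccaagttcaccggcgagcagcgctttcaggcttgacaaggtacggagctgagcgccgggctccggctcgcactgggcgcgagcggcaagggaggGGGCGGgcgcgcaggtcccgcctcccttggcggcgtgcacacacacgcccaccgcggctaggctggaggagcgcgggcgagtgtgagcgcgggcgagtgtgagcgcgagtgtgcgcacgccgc
Gabrd promoter, chr5:171252710-171252959, minus strand: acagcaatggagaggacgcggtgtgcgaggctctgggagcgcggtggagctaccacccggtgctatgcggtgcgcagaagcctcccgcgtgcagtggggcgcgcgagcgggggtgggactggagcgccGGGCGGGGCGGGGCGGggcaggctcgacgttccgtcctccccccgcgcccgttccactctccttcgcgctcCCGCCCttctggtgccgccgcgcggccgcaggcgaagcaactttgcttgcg
Gabrr1 promoter, chr5:52320225-52320474, plus strand: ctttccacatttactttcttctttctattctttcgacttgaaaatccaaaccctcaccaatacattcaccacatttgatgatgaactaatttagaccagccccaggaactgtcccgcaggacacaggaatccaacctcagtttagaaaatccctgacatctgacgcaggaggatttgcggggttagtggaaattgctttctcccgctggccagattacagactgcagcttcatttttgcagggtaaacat
Gabrr2 promoter, chr5:52248228-52248477, plus strand: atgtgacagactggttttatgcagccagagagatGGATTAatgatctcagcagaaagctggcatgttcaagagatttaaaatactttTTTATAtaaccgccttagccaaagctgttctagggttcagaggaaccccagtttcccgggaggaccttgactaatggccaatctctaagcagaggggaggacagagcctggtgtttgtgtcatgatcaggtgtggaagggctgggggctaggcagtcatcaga
Searched on both strands were 6 motifs, whose shares refer to 27457 promoter windows of this length. The GC box, spelled GGGCGG and held by 32.4% of windows, matched 1 time in Gabra4 and 4 times in Gabrd, where 3 matches overlap each other. The core bound by the photoreceptor and bipolar cell factors CRX and OTX, spelled TAATCC and held by 6.33% of windows, matched 1 time in Gabrr2. The TATA motif, spelled TATAAA and held by 13.1% of windows, also matched 1 time in Gabrr2, and Gabrr1 held none of the 6 motifs. The remaining motifs were in none of the 4 promoters. They were the AP-1 motif, spelled TGANTCA and held by 6.36% of windows, the cyclic AMP response element, spelled TGACGTCA and held by 1.7% of windows, and an E-box, spelled CAGCTG and held by 11.9% of windows. GC content was 71.6% for Gabra4 and 74% for Gabrd, against 44% for Gabrr1 and 47.6% for Gabrr2, with a median of 52% over all windows. The number of CG pairs was 33 and 35 in the first 2 genes and 5 and 2 in the rho genes. With a promoter for fewer than 80% of members, no such property was compared over the whole set.

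Several GABA-A genes are direct neighbours in the genome (RefSeq gene order of GRCr8), and neighbours did not always share a ratio. In the cluster of Gabrb1, Gabra4, Gabra2 and Gabrg1, with 1 other gene between Gabra4 and Gabra2, the log2 ratios in HIOP over CTL were -0.73, -2.07, -1.25 and -1.17 in that order. The adjacent pair Gabrr2 and Gabrr1 had -0.07 and -0.06, and the adjacent pair Gria2 and Glrb had -1.14 and -1.42.

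Glycine receptors join alpha subunits, which bind glycine, with the beta subunit that anchors the receptor to gephyrin at synapses. Glrb, the most abundant of the class at 19.7 TPM in CTL, had 28.5 CPM in HIOP_GSK, 20.8 CPM in HIOP and 55.8 CPM in CTL and was lower in HIOP by 2.68-fold (2.37 to 3.04). Glra1, the main adult alpha subunit, had 20.6 CPM in HIOP_GSK, 19.9 CPM in HIOP and 32.7 CPM in CTL and was lower by 1.65-fold (1.43 to 1.89). The share of Glrb in the class was 40.8% in HIOP_GSK, 33.6% in HIOP and 44.5% in CTL, and that of Glra1 was 39.97% in HIOP_GSK, 43.4% in HIOP and 35.1% in CTL. Glra1 had the higher TPM of the pair in HIOP, and Glrb in HIOP_GSK and CTL. Glra3 had 28 counts in HIOP_GSK, 41 in HIOP and 109 in CTL and was lower by 2.83-fold (1.96 to 4.15) on counts. Its deposited TPM was 0.350 TPM in HIOP_GSK, 0.750 TPM in HIOP and 1.06 TPM in CTL, a log2 ratio in HIOP over CTL of -0.32 with a pseudocount of 0.5 and -0.45 with 0.1, both inside the limit. The other members, Glra2 and Glra4, had log2 ratios of -0.95 and -0.99.

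Genes that assemble, anchor or modulate these receptors were read from lists of the same pathway. Of 21 kept auxiliary subunit and organizer genes of glutamate receptors, 10 were at least 2-fold lower in HIOP (47.6%, against 8.04% of all kept genes) and none higher (against 9%), with a median log2 ratio of -0.94. Cacng5, a transmembrane AMPA receptor regulatory protein, had 8.02 CPM in HIOP_GSK, 8.47 CPM in HIOP and 23.8 CPM in CTL and was lower by 2.81-fold (2.31 to 3.42). Cacng2, stargazin, had 13.5 CPM in HIOP_GSK, 12 CPM in HIOP and 32 CPM in CTL and was lower by 2.67-fold (2.27 to 3.16). Cbln2, a cerebellin that links neurexins to delta receptors, had 13.5 CPM in HIOP_GSK, 8.94 CPM in HIOP and 25 CPM in CTL and was lower by 2.80-fold (2.32 to 3.40). Cacng5 and Cacng2 had similar levels in both ischemic libraries, whereas Cbln2 in HIOP_GSK stood between HIOP and CTL. Nptx1, a pentraxin that clusters AMPA receptors, had 28.9 CPM in HIOP_GSK, 32 CPM in HIOP and 81.3 CPM in CTL and was lower by 2.55-fold (2.30 to 2.82).

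Scaffold lists had medians nearer to 0 than the receptor set. Of 24 excitatory scaffold and signalling genes, 3 were called lower (12.5%, against 8.04% of all kept genes) and 1 higher (4.17%, against 9%). At 2-fold these shares were near those of all genes, but the median log2 ratio was -0.51, against 0.004 over all kept genes. At 1.5-fold, 9 of the 24 were lower (17.6% of kept genes) and 1 higher (16.1%). Dlg1, a scaffold also present in epithelia and glia, was the one called higher, with 427 CPM in HIOP_GSK, 476 CPM in HIOP and 184 CPM in CTL, or 2.59-fold (2.48 to 2.70). Dlgap1 was lower by 2.18-fold (1.98 to 2.39) and Grip2, which binds AMPA receptors, by 2.20-fold (1.80 to 2.68). Dlgap3, another postsynaptic density protein, was lower by 1.94-fold (1.70 to 2.22). Of 18 inhibitory synapse genes, 1 was called lower (5.56%, no more than the 8.04% of all kept genes), with a median of -0.42. That gene was Shisa7, which modulates GABA-A receptors and stands in the glutamate list as well, lower by 2.02-fold (1.61 to 2.54). Gabbr2, a subunit of the metabotropic GABA receptor, was lower by 1.88-fold (1.71 to 2.07), the cytoskeletal linker gene Macf1 by 1.60-fold (1.58 to 1.63) and Gabarapl1 by 1.49-fold (1.41 to 1.58). In HIOP_GSK over HIOP, no gene of the 3 lists was called, and their median log2 ratios were 0.05 for the auxiliary, -0.02 for the excitatory scaffold and -0.001 for the inhibitory genes.

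Markers of the neurons that carry these receptors were read beside them, leaving out receptor genes. Over all kept genes, 8.04% were called lower in HIOP than in CTL and 9% higher. In HIOP over CTL, 8 of 11 ganglion cell markers were called lower, with a median log2 ratio of -1.19, and a summed level of 279 TPM in HIOP_GSK, 245 TPM in HIOP and 594 TPM in CTL. Of 10 amacrine markers, 6 were called lower, with a median of -1.19, and their summed level was 295 TPM in HIOP_GSK, 234 TPM in HIOP and 600.3 TPM in CTL. Of the 7 kept bipolar markers, 1 was called lower, with a median of -0.62, and the list summed to 632 TPM in HIOP_GSK, 727 TPM in HIOP and 1139 TPM in CTL. The bipolar genes Otx2 and Lrtm1 were not kept. Horizontal cell markers had 1 of 5 called lower and a median of -0.32, and summed to 77.6 TPM in HIOP_GSK, 70.6 TPM in HIOP and 98.4 TPM in CTL. Of 8 markers of Müller glia, 5 were called lower and 1 higher (median -1.28). Cone markers had 6 of 8 called lower (median -1.13) and rod markers none of 7 (median -0.04). By their medians, receptor genes and the ganglion, amacrine, cone and Müller glia lists were thus the furthest below CTL of these in HIOP. Bipolar and horizontal markers were also lower by their medians, but by less. Lists of other cells had medians of -1.24 for pigment epithelium, -1.07 for microglia and -4.18 for corneal and surface epithelium. The medians were -0.51 for endothelium, -0.44 for oligodendrocytes and -0.39 for astrocytes, and above 0 for neutrophils (6.965) and lens (1.57). The part of these cell types in the receptor values was not tested.

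**Figure D4:**
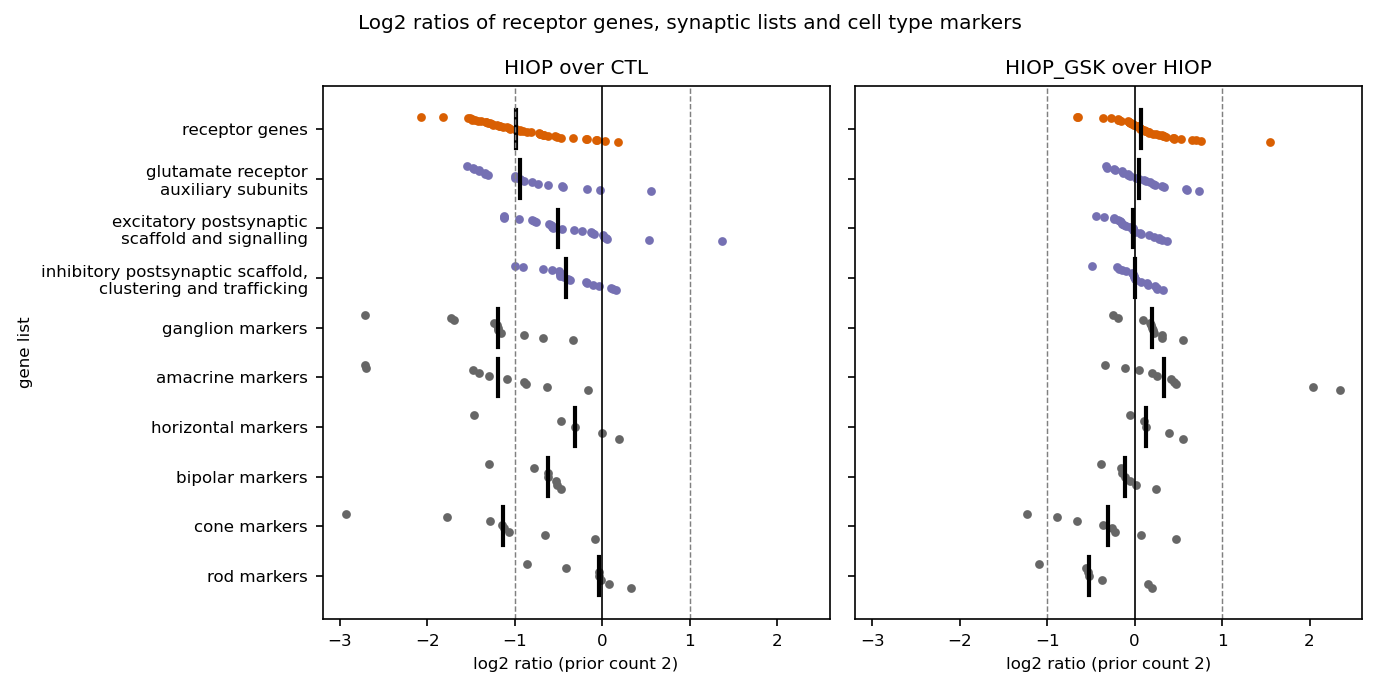
Log2 ratio with a prior count of 2 (horizontal axis) of each kept gene of the receptor set, of 3 synaptic lists and of 6 lists of neuronal markers, HIOP over CTL on the left and HIOP_GSK over HIOP on the right. Black bars are medians and dashed lines 2-fold. On the left the receptor median of -0.99 lies beside those of the auxiliary subunits, cone, ganglion and amacrine lists, and on the right the receptor median is 0.08.

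In HIOP_GSK compared with HIOP, receptor genes were close to the level of the ischemic retina without the drug. Of 45 kept members, 1 was at least 2-fold higher (2.22%, against 4.56% of kept genes) and none at least 2-fold lower (against 1.69%). The median log2 ratio was 0.08, against -0.002 over all kept genes, with a range from -0.66 to 1.55. Without the filter 1 member was higher (6.59% of genes with a count) and 1 lower (3.24%), which was Gabrq, on a single count in HIOP_GSK and 6 in HIOP. The 1 member called higher was Gabrg1, which had 61 counts in HIOP_GSK, 22 in HIOP and 49 in CTL and a ratio in HIOP_GSK over HIOP of 3.12 (1.89 to 5.34), an interval that reaches below 2-fold. At a limit of 1.5-fold, 4 members were higher (9.68% of kept genes) and 2 lower (4.82%), and no member had its whole interval past 2-fold upwards (1.82%) or downwards (0.579%).

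Counting intervals were above equal levels for 12 of the 45 kept members and below them for 4. Over all 15543 kept genes they were above for 3130 and below for 3104. Those above included Gabra4, with a ratio of 1.71 (1.28 to 2.28), Grin2a, with 1.59 (1.27 to 1.98), and Gria3, with 1.44 (1.29 to 1.61). Glrb had a ratio of 1.37 (1.19 to 1.58). Those below were Grik4, Grik5, Grm7 and Gabrr1, with 0.898 (0.840 to 0.960) for Gabrr1. The median log2 ratio was 0.19 for AMPA, 0.14 for NMDA, 0.33 for GABA-A alpha and -0.18 for group III metabotropic genes. In the same comparison, where 4.56% of kept genes were called higher, amacrine markers had a median of 0.33, with 2 of 10 called higher. Those called were Chat, with a ratio of 4.28 (3.00 to 6.22), and Slc18a3, with 5.71 (3.19 to 10.96). The medians were 0.20 for ganglion, 0.13 for horizontal, -0.11 for bipolar, -0.31 for cone and -0.53 for rod markers. Markers of Müller glia had a median of 0.55, with 3 of 8 called higher. Called lower were 1 of 8 cone and 1 of 7 rod markers, where 1.69% of kept genes were. All 5 microglia markers were called higher, with a median of 1.56 and a summed level of 53.1 TPM in HIOP_GSK, 15.9 TPM in HIOP and 25.8 TPM in CTL. Lens markers were 3.44 times as high in summed TPM in HIOP_GSK as in HIOP, and the part of these marker levels in the receptor values was not tested.

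The HIOP_GSK library compared with CTL shares a library with each comparison above, so its values stand beside them and add no independent evidence. Of 45 kept members, 17 were at least 2-fold lower, where 6.32% of kept genes were, and none was higher, where 10.4% were. Their median log2 ratio was -0.88. At 1.5-fold, 34 were lower (16.6% of kept genes) and 0 higher (17.6%), and with the whole interval past 2-fold, 6 were lower (2.47%) and 0 higher (6.82%). Without the filter 18 were lower (8.31% of genes with a count) and 1, Grin3b, higher (11.5%). Of the kept members, the one furthest below was Grm3, at 4.73-fold (3.00 to 7.75) lower, followed by Gabrd, at 3.93-fold (2.54 to 6.28). Of the rho genes none was called, and Gabrr2 had a ratio of 0.983 (0.910 to 1.06).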

How the data were processed

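Retinal RNA of 3 libraries was analysed, 1 each for HIOP_GSK, HIOP and CTL. Per the labels' protocols, RNA was depleted of ribosomal RNA and made into directional libraries. The authors deposited a count and a TPM for 32883 Ensembl genes in each library, and the deposited counts are whole and not normalized. The deposited TPM sum to the same total in each library, and they gave other ratios than the counts for some genes, Glra3 among them, so both are shown where they part. The submitters' processing notes name STAR 2.5.4b, RSEM 1.3.1 and Rnor_6.0, with no role for each, while the counting tool and its strand setting were not stated, which leaves overlapping and antisense genes uncertain. Promoters came from GRCr8 and not from the build of the deposited values.

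Counts were scaled with TMM (edgeR 4.0.16, R 4.3.3) over the whole table, with DESeq2 1.42.0 size factors as an alternative. Genes with a CPM of 1 in at least 1 library were kept. Log2 ratios used a prior count of 2, calls a limit of 2-fold, and folds an exact Clopper-Pearson 95% interval, counting error only, since reads are not independent molecules. A count of 0 allows up to 3 counts, or 0.197, 0.175 and 0.186 CPM in HIOP_GSK, HIOP and CTL. The functions were tested on simulated counts. Named members were the most abundant of each class, each of at least 20 counts called in either comparison, and the extremes of each class. Pathway genes named were the up to 4 with the most extreme interval bound. Members and lists were chosen with earlier results of these data known. Insyn1 was matched through an older symbol. Prph2, Itgam, Pecam1, Shisa9, Gsg1l and Gabarapl2 were not analysed here, and values of some members are not reported here.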

Additional observations from a re-analysis of the deposited data

How the results depend on the processing

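No paired analysis was possible because each group has 1 library, and for the same reason no library could be left out. Of 45 kept members, 22 were at least 2-fold lower in HIOP than in CTL, 0 were higher under every alternative, and the lower count was 18 to 24 under the other scalings, filters, prior counts and deposited TPM. A limit of 1.5-fold gave 35, and a whole interval past 2-fold 14. The count of 17 members lower in HIOP_GSK than in CTL was 34 at 1.5-fold and 6 with the whole interval past 2-fold, and without the filter 1 member, Grin3b at 5 counts in HIOP_GSK and 1 in CTL, was higher. In HIOP_GSK over HIOP, where 1 member was higher and 0 lower, 4 were higher and 2 lower at 1.5-fold, 0 were higher at a minimum of 5 CPM or with the whole interval past 2-fold, and 1 was lower without the filter. The median log2 ratio of the members stayed between -1.09 and -0.90 in HIOP over CTL, between 0.06 and 0.14 in HIOP_GSK over HIOP, and between -0.94 and -0.86 in HIOP_GSK over CTL. No called value changed sign. With deposited TPM and a pseudocount of 0.5, Glra3, Grin2d and Grin3a were no longer called lower in HIOP and Glra2 was, at -1.08. With 0.1, Grin2d was called again, at -1.14, so that call turns on the pseudocount, while Grin3a (-0.92) and Glra3 (-0.45) were not called. This pseudocount also gave 1 group I, 2 group III metabotropic and 2 GABA-A gamma genes called lower, against 0, 1 and 1 on counts. For the rest of the gap between counts and TPM the cause was not tested. Among kept members, low counts limit Gabra5, Gabrd, Gabre, Gabrg1, Glra3, Glra4, Grin3a and Grm3. Their ratios in HIOP over CTL have an upper bound over 2 times the lower one.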

Other observations

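Chloride transport sets the direction of GABA and glycine currents. Neither gene for its main carriers in neurons was called higher or lower in HIOP over CTL. Slc12a5, which exports chloride, had 361 CPM in HIOP_GSK, 364 CPM in HIOP and 492 CPM in CTL and was lower in HIOP by 1.35-fold (1.31 to 1.40). Slc12a2, which imports it, had 151 CPM in HIOP_GSK, 121 CPM in HIOP and 112 CPM in CTL, a ratio of 1.07 (1.01 to 1.15). Both lay inside 2-fold. The direction of Slc12a2 turned with deposited TPM, at a log2 ratio of -0.02, where that of Slc12a5 was -0.63. Over all kept genes the median log2 ratio of TPM was itself -0.083, against 0.004 on counts. Gphn, the gephyrin scaffold of glycine and GABA-A receptors, had 88.7 CPM in HIOP_GSK, 94.8 CPM in HIOP and 107 CPM in CTL and was lower by 1.13-fold (1.05 to 1.21), while the gephyrin-binding subunit Glrb was lower by 2.68-fold (2.37 to 3.04).

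Elfn1, which recruits metabotropic glutamate receptors across the synapse, went against its list. It had 188 CPM in HIOP_GSK, 196 CPM in HIOP and 133 CPM in CTL, and its ratio in HIOP over CTL was 1.47 (1.39 to 1.55). Homer3, which binds group I metabotropic receptors, had 21.8 CPM in HIOP_GSK, 22.7 CPM in HIOP and 15.7 CPM in CTL and a ratio of 1.45 (1.24 to 1.71). Both were higher in the ischemic libraries than in CTL, while the group I and group III receptor genes were lower. Elfn1, Homer3, Slc12a5, Slc12a2 and Gphn were chosen here after their values were seen.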
